A study of Rattus norvegicus with 24 samples.

Results

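The acute phase response genes described here are 4 rat genes, A2m (ENSRNOG00000028896), Lcn2 (ENSRNOG00000013973), Hp (ENSRNOG00000014964) and Stat3 (ENSRNOG00000019742). They were chosen by Ensembl gene ID from tables of 18056 IDs, and all 4 IDs were present. The symbols come from that choice of genes, since the tables hold IDs alone. Liver RNA was sequenced from 24 rats at about postnatal day 48, 6 in each of 4 groups. The groups were males from dams that breathed filtered air, males from dams that breathed ozone, females from air-exposed dams and females from ozone-exposed dams. The ozone-exposed dams breathed 0.8 ppm for 4 hours on gestation days 5 and 6, and each exposure had 12 dams. All 24 offspring themselves breathed ozone once a week from week 5 to week 7 after birth, first 0.4 ppm and then 0.8 ppm, so no group here went without ozone after birth. The labels name no strain and no litter, so some animals of a group may share a dam, while the p-values treat them as independent.

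The acute phase response is the change in plasma protein production that the liver makes during inflammation, infection or tissue damage. Interleukin 6 binds its receptor on hepatocytes and, through Janus kinases, activates STAT3, which then acts on the promoters of many acute phase genes together with C/EBP factors, while interleukin 1 acts largely through NF-kB. Among the products, A2m encodes alpha-2-macroglobulin, a protease inhibitor and a major acute phase protein of the rat. Hp encodes haptoglobin, the plasma protein that binds free haemoglobin, which the liver secretes also at rest. Lcn2 encodes lipocalin 2, which binds bacterial siderophores and is made by hepatocytes under inflammation and by neutrophils. Stat3 encodes the transcription factor itself.

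Library totals lay between 8462267 and 14564636 estimated counts, apart from 1 library at 36232048, replicate 6 of the females from ozone-exposed dams. Levels are given as CPM, the counts scaled to library size after TMM normalization, and 3 counts corresponded to 0.0872 to 0.344 CPM. Library names take 2 forms, treated as library sets and entered as a covariate. A group from air-exposed dams held 3 libraries of set 1 and 3 of set 2, and a group from ozone-exposed dams held 2 and 4. The groups occupy separate ranges of rat numbers, so an effect of that order and an effect of the group cannot be told apart. The tables do not pair the other IDs with symbols, so markers of hepatocytes, neutrophils and other liver cells could not be picked out here. The labelled tissue could therefore not be checked by markers other than Hp. In these bulk samples, fewer cells of a type and less RNA per cell cannot be told apart.

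A difference is called where the Benjamini-Hochberg adjusted p of edgeR's quasi-likelihood test, over all genes tested, is under 0.05. None of the 4 genes was called for maternal exposure in either sex, and 2 of them differed between the sexes. All 4 passed the filter on low counts in every fit. Maternal ozone went with a call in 0 of 4 genes in males, where 21.9% of 12198 tested genes were called. There 1 of the 4 (A2m) had an unadjusted edgeR p under 0.05, as did 4353 of all genes tested, among which A2m ranked 2772 by p. DESeq2 and limma-voom each called 1 of the 4 in males, again A2m, and their shares over all genes in males are not given here. In females 0 of 4 were called (0.271% of 12185 genes), with 0 at an unadjusted p under 0.05 (1969 of all genes) and 0 by DESeq2 and by limma-voom. The test of whether the maternal difference differs between males and females called 0 of 4 (23.5% of 12731 genes). At an unadjusted p under 0.05 it had 0 of the 4 (4686 of all genes), and either other tool called 0. Between the sexes, 2 of 4 genes were called with air-exposed dams (51.9% of genes), 1 higher in males (25.7%) and 1 lower (26.1%). With ozone-exposed dams 1 of 4 was called (5.83% of genes), lower in males (2.84%). With so few members, these counts show no more than which genes passed. The median absolute maternal log2 fold change of the 4 genes was 0.38 in males and 0.34 in females, against 0.26 and 0.17 over all genes tested. This difference was not tested, and the medians take no account of standard error (SE). The SE in males and females was 1.17 and 0.99 for Lcn2 and 0.20 and 0.58 for A2m.

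**Figure D1:**
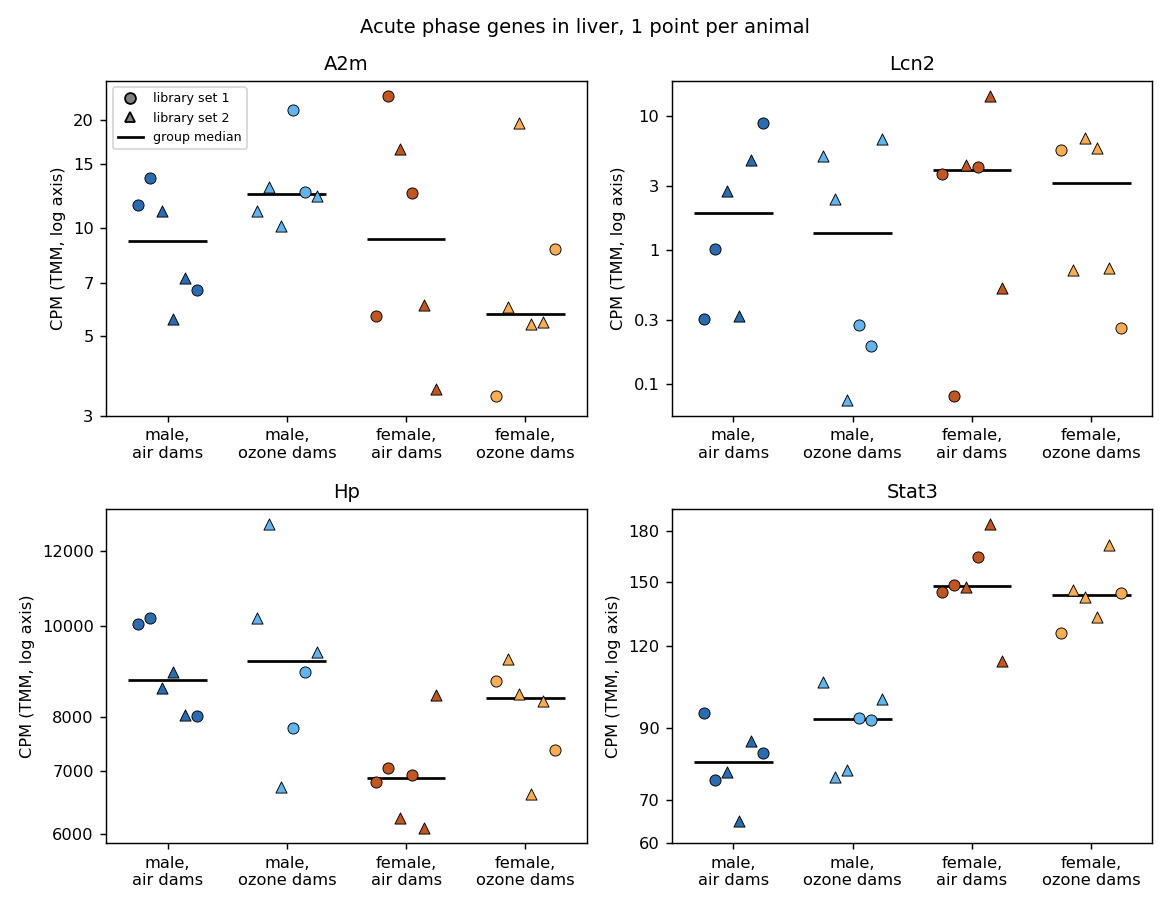
Level of each gene in CPM (log axis) in every animal, by group, with circles for library set 1, triangles for library set 2 and a bar at the group median. Stat3 lies between 65.0 and 105.6 CPM in the 12 males and between 113.7 and 184.4 in the 12 females, whereas Lcn2 spreads widely within each group.

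The promoters of Lcn2 and Stat3 are shown because the RefSeq promoter sequences used covered only these 2 of the 4 genes. The sequences are the 250 bases before the annotated start, from RefSeq on build GRCr8, which is not the build of the counts. Capitals mark matches, on either strand, to letters of sites known for acute phase factors. These were TTCNNNGAA for STAT factors, TTGCNNAA for C/EBP and GGG followed by any 4 bases and TCC for NF-kB, chosen after the sequences had been seen.
Lcn2, chr3:36081781-36082030, minus strand: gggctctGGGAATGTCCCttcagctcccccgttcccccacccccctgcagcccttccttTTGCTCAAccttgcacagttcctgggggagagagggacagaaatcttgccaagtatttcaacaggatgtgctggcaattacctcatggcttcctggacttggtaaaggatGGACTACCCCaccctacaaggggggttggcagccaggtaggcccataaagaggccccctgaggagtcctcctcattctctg
Stat3, chr10:86363360-86363609, minus strand: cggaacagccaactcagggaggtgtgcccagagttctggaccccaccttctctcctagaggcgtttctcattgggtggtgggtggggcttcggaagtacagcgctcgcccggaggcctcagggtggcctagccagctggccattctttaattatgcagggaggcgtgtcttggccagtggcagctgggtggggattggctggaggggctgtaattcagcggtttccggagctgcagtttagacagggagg
The Lcn2 window held 3 matches to the NF-kB letters, of which 2 overlap on opposite strands at its far end, in GGGAATGTCCC, while GGACTACCCC lies 81 to 72 bases before the start. It held 1 match to the C/EBP letters, TTGCTCAA, from 191 to 184 bases before the start, and 0 to the STAT letters. The Stat3 window held 0 matches to any of the 3. Among 33469 rat promoter windows of the same length, the letters for NF-kB were found in 15.2%, those for C/EBP in 9.22% and those for STAT in 7.67%. A match describes the letters alone.

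Stat3, the transcription factor of the set, was lower in males than in females in both dam groups. With air-exposed dams its lowest, median and highest levels were 65.0, 79.8 and 94.8 CPM in males and 113.7, 148.0 and 184.4 CPM in females. With ozone-exposed dams they were 75.8, 92.9 and 105.6 CPM in males and 125.8, 143.7 and 171.0 CPM in females. Every male was therefore below every female, within each dam group and across them. Ranges of males wholly below those of females were found in 14.5% of genes with air-exposed dams and in 1.91% with ozone-exposed dams. The share of genes with such a separation across the dam groups was not determined, so how common it is remains unknown here.

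Group means of Stat3 were 80.02 ± 10.2 CPM in males and 150.6 ± 23.4 in females with air-exposed dams (SD, n = 6 each). The log2 difference, male minus female, was -0.91 ± 0.12 SE (edgeR adjusted p = 1.74e-06), so the level in females was 1.87-fold that in males (95% interval 1.58 to 2.22). With ozone-exposed dams the means were 90.8 ± 11.9 and 143.8 ± 15.4 CPM, the log2 difference was -0.66 ± 0.12 (adjusted p = 0.000496) and the female level was 1.58-fold that of males (1.34 to 1.87). Within library set 1 the second difference was -0.54 and was no longer called (adjusted p = 0.374), with 2 males against 2 females. In set 2 it was -0.72 (adjusted p = 0.0245). The first difference was called within each set, at -0.84 and -0.97.

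Maternal exposure did not separate the Stat3 levels within a sex. The log2 difference, ozone-exposed minus air-exposed dams, was 0.18 ± 0.12 in males (95% interval -0.07 to 0.43; edgeR adjusted p = 0.279) and -0.08 ± 0.13 in females (-0.35 to 0.19; adjusted p = 0.795). These intervals hold no maternal change in Stat3 of more than 1.35-fold up or 1.27-fold down in either sex. The sex difference was smaller with ozone-exposed dams by 0.24 ± 0.17 on the log2 scale, which the test of the interaction did not call (adjusted p = 0.301). In order of mean level the groups were females from air-exposed dams, females from ozone-exposed dams, males from ozone-exposed dams and males from air-exposed dams. Of the neighbours in that order, the females and males from ozone-exposed dams differed, and the other pairs were not called.

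Hp, the haptoglobin gene, was higher in males than in females with air-exposed dams. With air-exposed dams its lowest, median and highest levels were 8003, 8757 and 10190 CPM in males and 6084, 6874 and 8436 CPM in females. The groups overlapped through 1 female, replicate 6 at 8436 CPM, which was above 2 of the 6 males, replicates 5 and 6 at 8032 and 8003 CPM. Means were 8964 ± 960 and 6927 ± 835 CPM (SD, n = 6 each), and the log2 difference was 0.38 ± 0.13 SE (edgeR adjusted p = 0.0164), a 1.30-fold higher level in males (95% interval 1.08 to 1.57). This call was lost within either library set alone, at 0.47 (adjusted p = 0.0658) and 0.30 (adjusted p = 0.276).

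With ozone-exposed dams Hp was at 6728, 9159 and 12834 CPM in males and at 6611, 8381 and 9219 CPM in females, again as lowest, median and highest. The male range enclosed 5 of the 6 females. Its log2 difference between the sexes was then 0.20 ± 0.13 (edgeR adjusted p = 0.463), and the interaction did not pass (-0.18 ± 0.18, adjusted p = 0.496), so the sex difference was not shown to differ between the dam groups.

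Maternal ozone went with a log2 difference in Hp of 0.03 ± 0.16 in males (95% interval -0.30 to 0.36; edgeR adjusted p = 0.908). In females Hp was 8115 ± 955 CPM with ozone-exposed dams and 6927 ± 835 with air-exposed dams (SD, n = 6 each), a log2 difference of 0.23 ± 0.13 (-0.04 to 0.49; adjusted p = 0.390). No maternal change in Hp beyond 1.41-fold up or 1.23-fold down lies within either interval. In order of mean level the groups were males from ozone-exposed dams, males from air-exposed dams, females from ozone-exposed dams and females from air-exposed dams. The first pair and the last pair were not called, and the middle pair, which differs in sex and in dam exposure, was not tested.

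**Figure D2:**
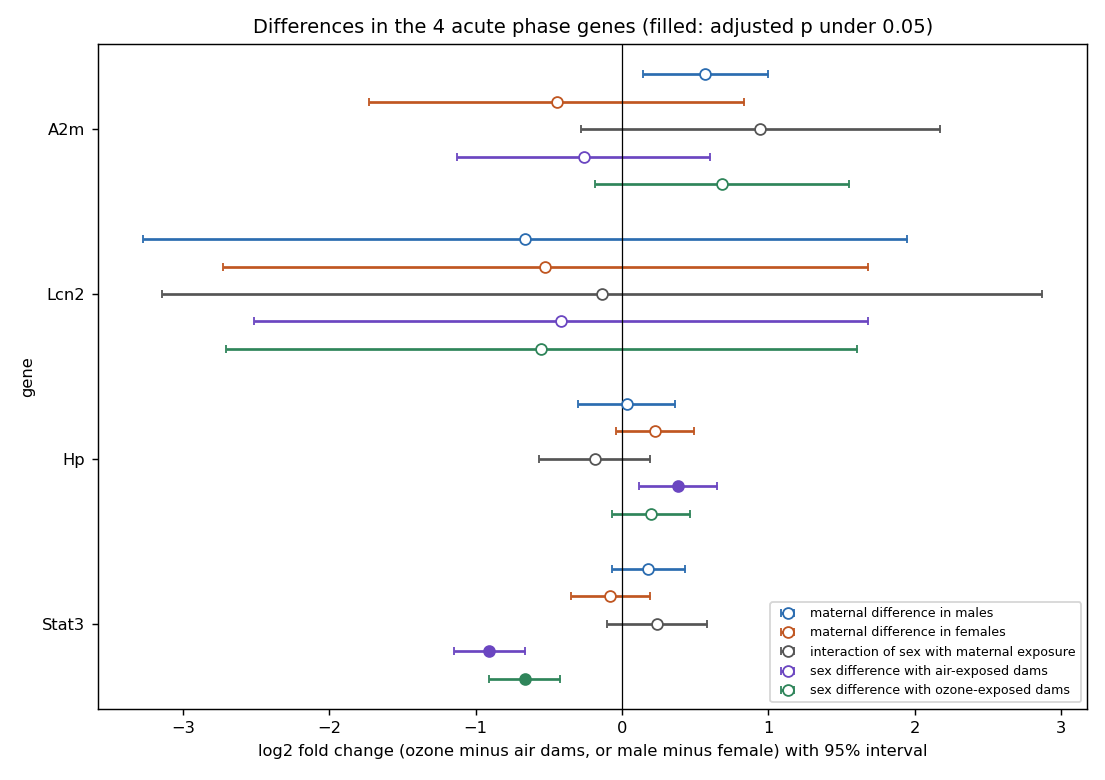
Log2 fold change of each gene with its 95% interval in the 5 comparisons, ozone-exposed minus air-exposed dams or male minus female, with filled points where the adjusted p was under 0.05. The 3 filled points are the sex differences of Stat3 (-0.91 and -0.66) and of Hp with air-exposed dams (0.38), and the intervals of Lcn2 are the widest of the 4 genes.

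A2m, the alpha-2-macroglobulin gene, came nearest to a maternal difference, in males. Its lowest, median and highest levels were 5.59, 9.18 and 13.7 CPM in males from air-exposed dams and 10.1, 12.4 and 21.2 CPM in males from ozone-exposed dams. All 6 males from ozone-exposed dams lay above 3 of the 6 from air-exposed dams, and the ranges overlapped between 10.1 and 13.7 CPM. Means were 9.33 ± 3.24 and 13.4 ± 3.98 CPM (SD, n = 6 each), and the log2 fold change was 0.57 ± 0.20 SE (95% interval 0.14 to 0.997; unadjusted p = 0.0122, edgeR adjusted p = 0.0535). The adjusted p was under 0.05 with DESeq2 (0.0334), limma-voom (0.0460), scaling by library totals alone (0.0413) and a filter on a mean count of at least 50 (0.0495), and above it with the other alternatives, between 0.0502 and 0.376. Within library sets 1 and 2 alone the fold change was 0.63 and 0.54. With 1 male left out at a time the fold change stayed between 0.43 and 0.73 and the adjusted p between 0.0158 and 0.181.

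In females the A2m levels spread further. They were 3.56, 9.29 and 23.3 CPM at the lowest, median and highest with air-exposed dams, and 3.41, 5.74 and 19.6 CPM with ozone-exposed dams. The second group overlapped the first almost wholly, with 5 of its 6 animals under 9 CPM and replicate 3 at 19.6. The female log2 fold change was -0.45 ± 0.58 SE (95% interval -1.73 to 0.84; edgeR adjusted p = 0.741), which spans changes from 3.31-fold lower to 1.79-fold higher. Within library set 1 the female means were 13.8 CPM with air-exposed dams (n = 3) and 6.07 with ozone-exposed dams (n = 2). Within set 2 they were 8.76 (n = 3) and 9.12 CPM (n = 4), in the same order. The fold changes of the sexes differed by 0.95 ± 0.59, which was not called (adjusted p = 0.257), but was 1.45 with an adjusted p of 0.0434 without replicate 3 of the females from ozone-exposed dams. The sex difference was not called in either dam group, at -0.26 ± 0.42 with air-exposed dams (adjusted p = 0.623) and 0.69 ± 0.42 with ozone-exposed dams (adjusted p = 0.417).

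By mean level of A2m, males from ozone-exposed dams came first at 13.4 CPM, then females from air-exposed dams at 11.3, males from air-exposed dams at 9.33 and females from ozone-exposed dams at 8.10. Of the neighbours in that order only the females and males from air-exposed dams were tested, and that difference was not called. The deposited A2m counts were fractional in 24 of 24 libraries (beyond a tolerance of 1e-09), whereas those of Lcn2, Hp and Stat3 were whole in all 24. Whether reads of A2m were shared with other genes was not tested.

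Lcn2, the lipocalin 2 gene, ranged widely among the animals of every group. Its lowest, median and highest levels were 0.309, 1.89 and 8.80 CPM in males from air-exposed dams and 0.0759, 1.34 and 6.69 CPM in males from ozone-exposed dams. In females they were 0.0824, 3.93 and 13.98 CPM with air-exposed dams and 0.262, 3.15 and 6.86 CPM with ozone-exposed dams. High and low animals stood in all 4 groups, and the groups overlapped over nearly their whole ranges. In order of level, 11 of the 24 libraries lay at or below 1.03 CPM and 13 at or above 2.40 CPM, with none between. A gap of like size, from 0.0824 to 0.193 CPM, lay lower down.

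The low values rest on few reads. Lcn2 had 3 counts or fewer in 5 libraries, 3 of them males from ozone-exposed dams, and 133 at most. The lowest, replicate 3 of the males from ozone-exposed dams, had 1 count, or 0.0759 CPM with an exact Poisson interval of 0.00192 to 0.423. The highest, replicate 5 of the females from air-exposed dams, had 133 counts. Maternal log2 fold changes were -0.66 ± 1.17 SE in males (95% interval -3.27 to 1.95; edgeR adjusted p = 0.722) and -0.52 ± 0.99 in females (-2.73 to 1.68; adjusted p = 0.827). These intervals span changes from 9.67-fold lower to 3.86-fold higher in males and from 6.62-fold lower to 3.21-fold higher in females. Sex differences were -0.42 ± 1.01 with air-exposed dams (adjusted p = 0.750) and -0.55 ± 1.03 with ozone-exposed dams (adjusted p = 0.844). By mean level the groups ran from females of air-exposed dams (4.46 ± 5.02 CPM; SD, n = 6) over females of ozone-exposed dams (3.32 ± 3.05) and males of air-exposed dams (2.99 ± 3.31) to males of ozone-exposed dams (2.45 ± 2.84). The first pair and the last pair in that order were not called for maternal exposure, and the middle pair, which differs in sex and in dam exposure, was not tested. Markers of neutrophils, which also carry Lcn2 RNA, could not be picked out among the IDs, and the part of these cells in the spread was not tested.

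Of the 4 genes, Lcn2 had the widest spread between animals in both sexes. The biological coefficient of variation of edgeR, the spread left after counting error, was 1.25 for Lcn2 in males and 1.17 in females, more than in 99.9% of the genes tested in each sex. Against genes within 0.5 of its own average log2 CPM, the median coefficient was 0.240 in males and 0.222 in females, and Lcn2 exceeded 99.7% and 99.8% of them. For A2m the coefficient was 0.235 in males and 0.634 in females, above 87.0% and 98.2% of genes of like level. The difference in A2m spread between males and females was not tested. Stat3 (0.156 and 0.171) lay near the medians of genes at its own level, 0.158 and 0.171. Hp, at 0.204 in males and 0.170 in females, had only 9 and 12 genes of like level for comparison, counts that include Hp itself.

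**Figure D3:**
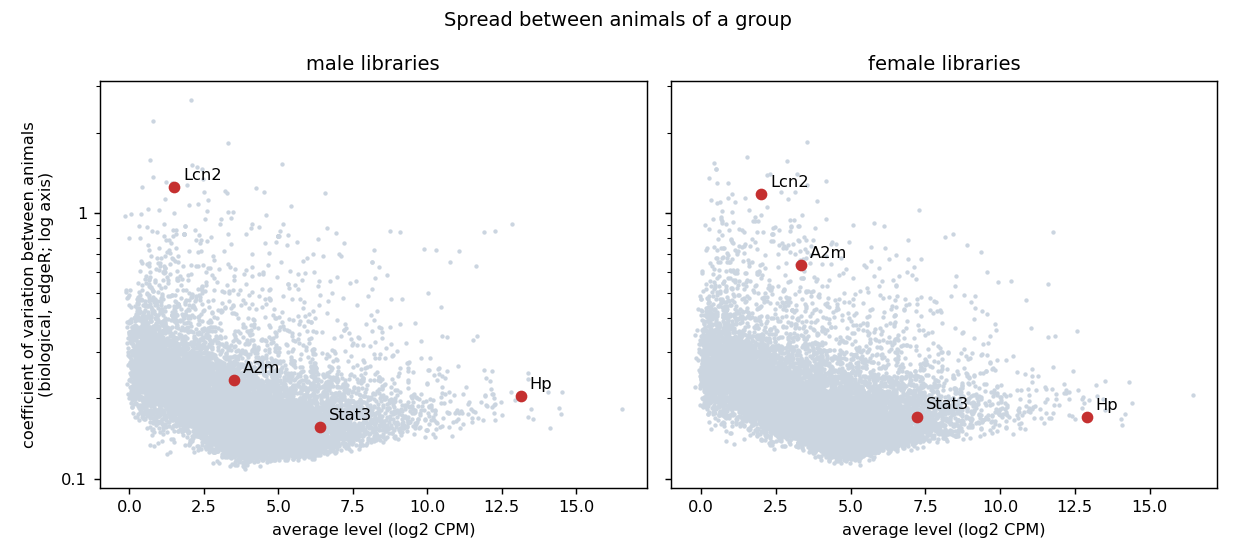
Biological coefficient of variation between animals (log axis) against average level in log2 CPM for every gene tested, in males and in females, with the 4 genes in red. Lcn2 is near the top in both sexes (1.25 and 1.17), and A2m stands at 0.235 in males and 0.634 in females. Stat3 lies within the mass of genes, and Hp (0.204 and 0.170) at a high level that few genes reach.

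No pair of the genes was shown to vary together among the animals of a group, which does not show that such a relation is absent. Pearson's r between the deviations of log2 CPM from the group means, over 24 animals and 6 pairs of genes, ran from -0.162 for Hp and Stat3 to 0.275 for Lcn2 and Stat3 (permutation within groups, two-sided, p = 0.489 and 0.236, adjusted 0.834 and 0.820; Spearman's rho -0.110 and 0.309, p = 0.631 and 0.175, both adjusted 0.779). A2m and Stat3 had r = 0.266 and rho = 0.207 (permutation p = 0.273 and 0.370, adjusted 0.820 and 0.779), and A2m and Lcn2 had r = -0.138 and rho = -0.157 (p = 0.556 and 0.495, adjusted 0.834 and 0.779). The remaining pairs were closer to 0, with r = -0.0381 and rho = 0.0774 for A2m and Hp (permutation p = 0.846 and 0.722, adjusted 0.980 and 0.779) and r = -0.00600 and rho = -0.0652 for Lcn2 and Hp (p = 0.980 and 0.779, adjusted 0.980 and 0.779). Without the 2 animals farthest from the median of the first gene of a pair, r lay between -0.189 and 0.351. In library set 1 alone, with 10 animals, r of A2m and Lcn2 was -0.803 (permutation, adjusted p = 0.538). In set 2, with 14, it was 0.464 (permutation, adjusted p = 0.468), so that the pair had opposite signs in the 2 sets and passed in neither. Set 1 held 2 or 3 animals of a group, so few arrangements within groups were possible and a pair could hardly pass there. In sets 1 and 2, r was -0.313 and 0.601 for Lcn2 and Stat3, 0.265 and 0.173 for A2m and Stat3, and -0.193 and -0.202 for Hp and Stat3. It was 0.0265 and -0.0627 for A2m and Hp, and -0.249 and -0.0310 for Lcn2 and Hp, and no pair passed in either set. The 2 females with the highest A2m levels differed in Lcn2. Replicate 2 of the females from air-exposed dams had 23.3 CPM of A2m and 0.0824 CPM of Lcn2, whereas replicate 3 of the females from ozone-exposed dams had 19.6 CPM of A2m and 6.86 CPM of Lcn2.

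**Figure D4:**
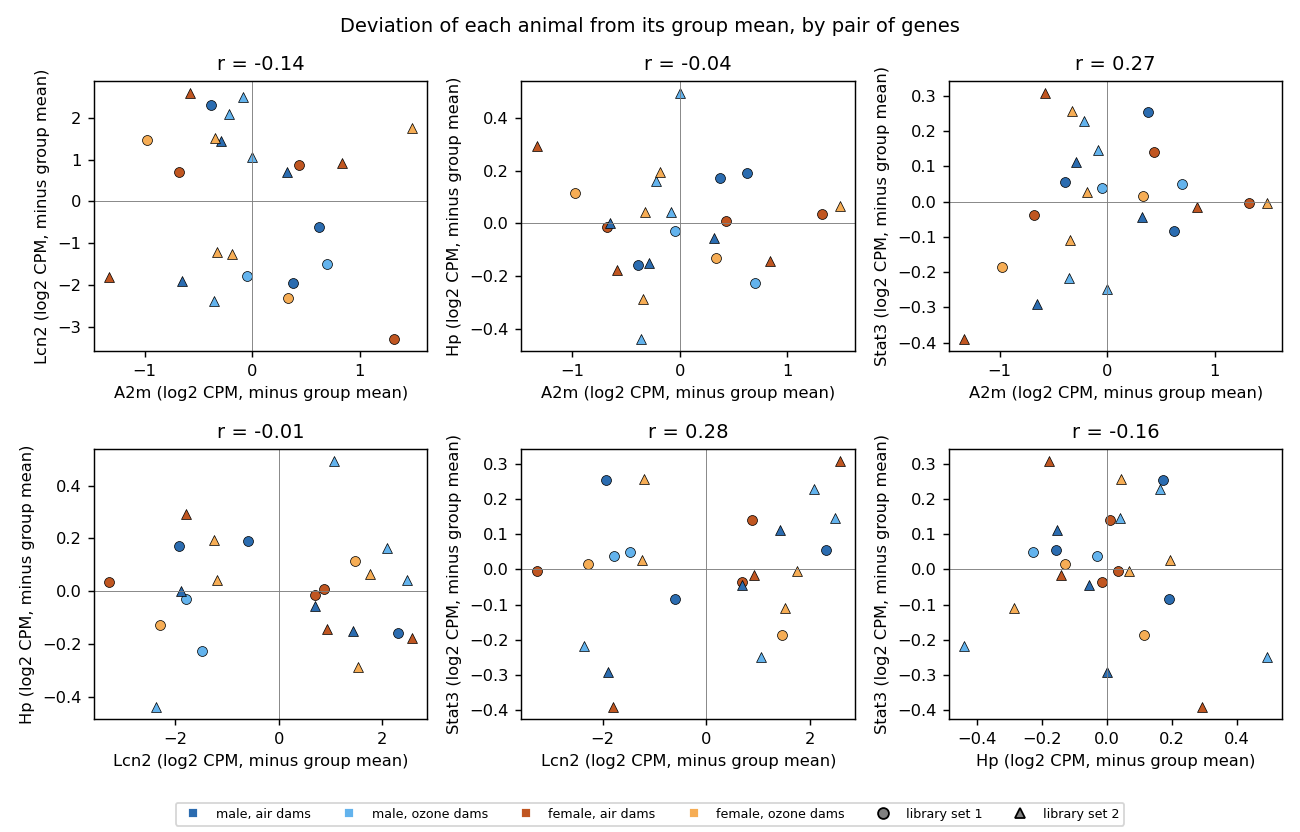
Deviation of each animal from its group mean in log2 CPM for the 6 pairs of genes, with colours for the groups, circles for library set 1 and triangles for library set 2. No pair shows a relation that passed adjustment, and r runs from -0.162 to 0.275.

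Genes whose levels ran most like each of the 4 over the 24 libraries were sought among 9338 genes with a mean count of at least 50, by Pearson's r of log2 CPM. For Stat3 the closest were ENSRNOG00000001713 (r = 0.918) and ENSRNOG00000051257 (r = 0.914). For Hp the closest was ENSRNOG00000003049 (r = 0.819) and for A2m ENSRNOG00000053450 (r = 0.744). The closest gene to Lcn2 reached r = 0.584. The files give no symbols for these IDs. These r values are descriptions over libraries that share the groups, so the sex difference of Stat3 enters them.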

How the data were processed

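PolyA RNA of 24 rat livers was sequenced on an Illumina NextSeq, per the labels' protocols. Partek, STAR 2.6.1d, DESeq2 and the build rn6 are named, without role or order, per the submitters' processing notes. The annotation, the strand setting and any filters are not stated in those notes or the labels. The values the authors deposited are estimated counts per Ensembl gene, in 1 table per sex, and 74.4% to 81.3% of those in a library were whole. A further 23 library columns fit no sample and were left out.

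These expected counts were rounded, and the tables were joined by gene ID for comparisons across the sexes. edgeR 4.0.16 in R 4.3.3 (TMM, filterByExpr by group with a minimum count of 10 and a total of 15, robust quasi-likelihood test, library set as covariate) was fitted to 12 libraries per sex for maternal exposure. It was fitted to all 24 for the interaction and the sex differences, 5 comparisons in all. Each SE was derived from the fold change and its F statistic. Log2 CPM used a prior count of 2. Deviations were permuted 100000 times within groups. Poisson intervals and the limit set by 3 counts cover counting error only. Each fit was also run on simulated data, with changes set in genes with a mean count of at least 50. Of 100 changes of 1.5-fold, 40 were recovered in males, 51 in females and 11 in the interaction. Of 100 changes of 2-fold, 86, 93 and 63 were recovered, in the same order. A difference that is not called may therefore still be present. Alternatives included DESeq2 1.42.0 and limma 3.58.1 (voom). All 60 pairs of replicates differed beyond counting error (chi-square per degree of freedom at least 16). Replicate numbers follow accession order and pair nothing.

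The genes, lists and tests were chosen with earlier results of these data known. All 4 genes are named, with the genes most like them by Pearson's r. The reference used held no Ensembl IDs, so 0 of the 18056 IDs matched it. The lists fixed for interleukin 6 and STAT3 signalling, other positive and negative acute phase proteins, NF-kB signalling and cell type markers were therefore not tested.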

Additional observations from a re-analysis of the deposited data

Results flagged for a closer look

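Of the 16 combinations of gene and group, 3 held an animal far from the other 5 by Dixon's ratio of gap to range. The ratio was taken on CPM, not on log2 CPM, and each flagged animal was the highest of its group. Chance flags about 1 in 20 such groups only if the values are normally distributed, which was not tested. A2m was at 21.2 CPM in replicate 4 of the males from ozone-exposed dams, where the next animal had 13. It was at 19.6 CPM in replicate 3 of the females from ozone-exposed dams, where the next had 8.72. Lcn2 was at 13.98 CPM in replicate 5 of the females from air-exposed dams, where the next had 4.33. Without these animals the maternal log2 fold change of A2m was 0.43 in males (edgeR adjusted p = 0.181) and -0.88 in females (adjusted p = 0.480), and that of Lcn2 in females was 0.27 (adjusted p = 0.928).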

How the results depend on the processing

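The sex difference of Stat3 kept its direction under every alternative run, and its call under all but 1 of 68, library set 1 alone with ozone-exposed dams (-0.54). Leaving out single libraries changed no call of Stat3 or Hp. Hp between the sexes with air-exposed dams was 0.47 and 0.30 in sets 1 and 2 alone. The maternal fold change of A2m in males was 0.59 with library totals only, 0.56 with a mean count of at least 50, 0.58 with DESeq2 and 0.59 with limma-voom, each then called, and 0.43 to 0.73 with 1 library left out, where 3 calls appeared (without air replicates 2 or 3 or ozone replicate 5). The interaction of A2m ran from 0.65 to 1.45 with 1 library left out, called once. In either library set alone it was not called, and its values there are not given here.

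Signs turned only for differences that were not called. In set 1 alone the maternal difference of Hp in males was -0.21 and the sex difference of Lcn2 with air-exposed dams 0.36. In set 2 alone Lcn2 had a maternal difference of 0.44 in males and an interaction of 1.25 (0.16 with no set term), and A2m a maternal difference of 0.043 in females. With 1 library left out, Lcn2 ran from -0.73 to 0.80 in the interaction, -1.21 to 0.10 for males, -1.32 to 0.27 for females and -1.48 to 0.17 between the sexes with air-exposed dams. Hp in males ran from -0.075 to 0.10, Stat3 in females from -0.18 to 0.017, and A2m between the sexes with air-exposed dams from -0.44 to 0.051. Of the pairs, r of Lcn2 and Hp was 0.0339 with library totals, and in set 1 alone r of A2m and Hp was 0.0265 and of Lcn2 and Stat3 -0.313. In set 2 alone r of A2m and Lcn2 was 0.464. The cause was not tested.

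Counts over all genes moved more. Maternal calls in males numbered 2677, with 861 in set 1 alone, 121 in set 2 alone and 1775 to 3753 with 1 library left out (1775 without air replicate 5). In females they numbered 33, with 325 by DESeq2, 66 with no set term, 9 and 0 in the sets alone, 1 with all 24 libraries in 1 fit and 0 to 137 with 1 left out. Where edgeR called 0, in set 2 alone and without air replicate 6, 1453 and 2025 genes had an unadjusted p under 0.05. Interaction calls were 2998, and 432 and 450 in the sets. Sex differences were 6606 with air-exposed dams (3404 in set 1) and 742 with ozone-exposed dams (71 and 412). The filter given the design matrix was added after the data had been seen and changed no call of the 4 genes. Lcn2 gave no value with a mean count of at least 50, which it did not reach. No paired analysis was possible because the labels give no replicate numbers. Depth limits Lcn2 most, at 3 counts or fewer in 5 libraries.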
